A study of Mus musculus with 52 samples.

Results

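MicroRNA genes were followed through the RNA polymerase II (Pol II) signal at their start windows in mouse neurons, during neuronal activity and with or without a blocked kinase pathway. The windows were taken from a table of Pol II density around transcription start sites, by their gene symbol: every symbol that begins with Mir and a number or with Mirlet7, except Mir132 and Mir212. This gave 1224 windows of 600 bp, of 27815 in the table (4.40%), for 1140 gene symbols. Overlapping windows were merged into 1037 loci, of which 952 held 1 window and 85 held 2 or more.

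The samples were primary neurons of CD1 mice, cultured with U0126, which inhibits the kinases MEK1 and MEK2 upstream of ERK, or with the vehicle DMSO. In each arm, chromatin was taken after 1, 10, 30, 60, 180 and 360 min of activity and from unstimulated neurons of 1 h and 6 h, and the labels do not name the stimulus. Pol II chromatin immunoprecipitation gave 31 libraries in 16 groups, with 2 libraries a group except U0126 at 180 min, which had 1. Immunoprecipitation of H3K27ac, the acetylated form of histone H3 found at active promoters and enhancers, gave 16 libraries in 8 groups, with U0126 and vehicle at 10, 30 and 60 min and unstimulated. The labels do not state that the libraries of a group are from different cultures, and the p-values below therefore reflect a spread between libraries that may be technical.

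MicroRNAs are cut from long primary transcripts, first by Drosha with Dgcr8 in the nucleus and then by Dicer1 in the cytoplasm, and guide Argonaute proteins to messenger RNAs through their seed, the bases near the 5′ end. Many microRNA hairpins lie in introns of protein-coding genes and share the promoter of that gene, while others are cut from a non-coding host transcript. In brain, miR-124 and miR-9 are abundant in neurons and their precursors, and miR-129 has been studied in homeostatic downscaling of rat neurons.

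The position of a window limits what it can show. For 225 pairs of neighbouring microRNAs, the distance between their windows matched the distance between the 5′ ends of their hairpins to within 1 bp, so the windows are centred on the hairpin and not on the start of the primary transcript. The exceptions are 8 windows of 7 host transcripts, such as Mir22hg and Mir9-3hg. A further 111 windows, in 88 loci, overlapped the window of another gene, whose Pol II cannot be told apart from that of the microRNA. The remaining 1105 windows held a precursor alone. Of 954 windows with a hairpin position in RefSeq (build GRCm38.p6), 619 lay within the span of a protein-coding gene and 335 lay outside.

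The mature sequences of the microRNAs on which the results turn are given 5′ to 3′ from RefSeq (GRCm38.p6), with the seed, bases 2 to 8, in capitals. Of the 1140 symbols, 947 had a hairpin in RefSeq, with 1598 mature sequences and 1332 distinct seeds.
miR-22-5p: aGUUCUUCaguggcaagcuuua
miR-22-3p: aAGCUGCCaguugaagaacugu
miR-129-5p: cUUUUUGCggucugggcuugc
miR-129-2-3p: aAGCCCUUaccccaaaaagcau
miR-129b-5p: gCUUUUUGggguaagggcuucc
miR-129b-3p: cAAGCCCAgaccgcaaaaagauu
miR-9-5p: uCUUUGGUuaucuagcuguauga
miR-9-3p: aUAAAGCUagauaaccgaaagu
let-7i-5p: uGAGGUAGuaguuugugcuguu
miR-92b-3p: uAUUGCACucgucccggccucc
The let-7i-5p seed was the most shared, by 11 mature sequences of these genes, and the miR-92b-3p seed was shared by 6. The other seeds printed here each belonged to 1 mature sequence of these genes. Mir129-2 and Mir129b are hairpins on opposite strands of chromosome 2, and their windows started 76 bp apart, so that they hold nearly the same chromatin.

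Because the Mir22hg and Mir9-3hg windows lie at the start of a host transcript, their promoters are shown, 250 bases before and 50 after the start, 5′ to 3′ on the strand of the gene. The capitals mark matches, on either strand, to the cyclic AMP response element (CRE, TGACGTCA) or its shorter core (TGACG).
Mir22hg, GRCm38.p6 chr11:75461289-75461588, plus strand: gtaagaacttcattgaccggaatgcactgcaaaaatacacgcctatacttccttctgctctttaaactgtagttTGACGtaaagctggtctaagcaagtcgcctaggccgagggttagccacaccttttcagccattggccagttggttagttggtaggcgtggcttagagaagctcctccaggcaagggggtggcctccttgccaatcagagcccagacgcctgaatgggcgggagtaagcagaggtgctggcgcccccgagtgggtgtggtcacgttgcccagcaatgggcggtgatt
Mir9-3hg, GRCm38.p6 chr7:79499776-79500075, plus strand: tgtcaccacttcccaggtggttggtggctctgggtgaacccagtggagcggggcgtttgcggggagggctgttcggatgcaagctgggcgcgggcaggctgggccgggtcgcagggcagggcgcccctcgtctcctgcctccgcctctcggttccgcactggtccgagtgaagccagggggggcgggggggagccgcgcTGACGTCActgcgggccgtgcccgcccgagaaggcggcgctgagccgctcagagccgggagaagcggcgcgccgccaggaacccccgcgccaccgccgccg
The Mir22hg promoter held 1 core and no full CRE, no AP-1 site (TGANTCA) and no CArG box. The Mir9-3hg promoter held 1 full CRE, within which its 2 cores lie, 1 on each strand. Of 32544 RefSeq promoters of the same length, 1.80% held a CRE, 20.9% a core, 7.79% an AP-1 site and 1.64% a CArG box, on either strand. The GC content was 75% with 35 CpG at Mir9-3hg and 54.7% with 12 CpG at Mir22hg, against a median of 53.0% and 7 CpG over all promoters.

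Pol II was sparse at most microRNA windows. The deposited unit is a normalized Pol II density, with no read counts, so the depth is unknown. The mean density over all libraries had a median of 0.162 at microRNA windows and 0.303 at the 26591 other windows. Windows that overlapped another gene had a median of 0.416 and windows of host transcripts 0.534, while precursors alone had 0.157. Only windows in the upper 50% of the table, with a mean of at least 0.282, were tested, which left 222 of the 1224 microRNA windows in 148 loci.

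**Figure D1:**
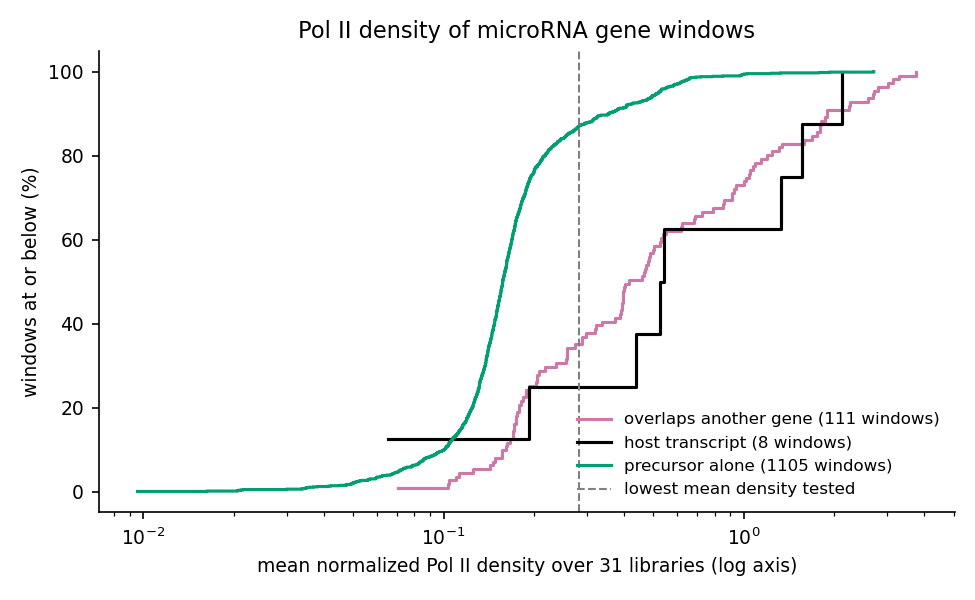
Share of microRNA windows (%) at or below a given mean normalized Pol II density over the 31 libraries (log axis), for windows that overlap another gene, windows of host transcripts and windows of precursors alone. The median is 0.416, 0.534 and 0.157, and the dashed line marks the lowest mean tested, 0.282.

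The highest densities stood beside promoters of other genes. Mir8114, whose window overlaps that of Glul (glutamine synthetase), had the highest mean density, 3.75. Other high windows were Mir5627 with 3.28 at Dnajb9, Mir207 with 3.04 at Dnaja1 and Mir320 with 2.80 at Polr3d. Among windows that overlap no other gene, Mir5133 had 2.71, Mir22hg 2.13 and Mir1894 1.93. Mir9-3 had 1.78, Mir9-3hg 1.57 and Mir124a-1hg, a host of miR-124, 1.33. Mir92b had 1.32, Mir124a-3 1.23, Mir8109 1.03 and Mir6935 1.00.

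MicroRNAs known from neurons ranged widely. Of 42 windows in the list of neuron microRNAs, 14 were tested, and the list's median density was 0.199. Windows of the miR-9 genes ran from 1.78 at Mir9-3 and 1.57 at the denser Mir9-3hg window to 0.672 at Mir9-1, 0.541 at the other Mir9-3hg window and 0.379 at Mir9-2. Windows of the miR-124 genes ran from 1.33 at Mir124a-1hg and 1.23 at Mir124a-3 to 0.719 at Mir124a-1, 0.527 at Mir124-2hg and 0.271 at Mir124a-2, the last under the tested limit. Mir219c and Mir219a-1 had 1.35 and 1.09, and both overlap the window of Ring1. The 44 listed windows of the imprinted chromosome 12 cluster below Meg3 had a median of 0.166, none tested. This chromosome 12 list is not complete, since it leaves out Mir432 and Mir1906-1, which were tested. The neuron list leaves out Mir129-2 and Mir129b, which were also tested. Windows of microRNAs listed for other tissues or cells, among them muscle, blood, liver and epithelium, had a median of 0.146 over 53 windows with 1 tested (Mir150). Windows of the broadly expressed let-7, miR-17 and related families had 0.168 over 60 windows with 9 tested.

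The labelled cell type was checked against marker genes, whose windows had a median density of 0.886 over 10 neuron markers, of which 9 were above the tested limit and Slc17a7 was not, at 0.204. Astrocyte markers had a median of 0.260 and oligodendrocyte markers 0.171, with 2 of 6 each above the limit, and microglia and endothelium markers 0.158 and 0.168, with 0 of 6 each. In such bulk cultures a change in the share of a cell type and a change within its cells cannot be told apart. Summed density per library was 15568 to 18507 over all windows. The share of microRNA windows listed at 0 was 18.3% in vehicle at 30 min replicate 1 and 14.2% in U0126 at 30 min replicate 1, against 0.980% to 7.52% in the other libraries.

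Pol II rose with activity at the start of Mir22hg, the host transcript of miR-22, in U0126 and in vehicle at 30 min. The Mir22hg window (mm9 chr11:75274740-75275340) had a density of 3.88 and 3.00 in vehicle at 30 min, against 1.51 and 1.59 in unstimulated vehicle. Both 30 min libraries were above both unstimulated libraries. The log2 fold change was 1.06 ± 0.23 (SE, n = 2 each, limma, adjusted p = 0.0168). In U0126, the density was 3.66 and 2.67 at 30 min, against 1.47 and 1.44 unstimulated, with a log2 fold change of 1.02 ± 0.23 (limma, adjusted p = 0.0480).

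At 10 min Mir22hg had 2.71 and 1.88 in U0126 and 2.55 and 2.22 in vehicle. At 60 min it had 2.31 and 3.22 in U0126 and 2.67 and 2.77 in vehicle. These lay above the unstimulated libraries but did not pass the test at either time, with adjusted p of 0.423 at 10 min and 0.260 at 60 min in vehicle, and 0.720 and 0.283 in U0126. Averaged over 10, 30 and 60 min, the log2 fold change was 0.79 in vehicle (limma, adjusted p = 0.0286) and 0.79 in U0126 (adjusted p = 0.0519).
At 180 and 360 min, against unstimulated neurons of 6 h, the vehicle log2 fold change was 0.42 and 0.39, with adjusted p of 0.999 and 1.000. U0126 minus vehicle at 30 min was -0.11 at Mir22hg, with a 95% interval of -0.58 to 0.37, and activity effects in U0126 and vehicle, averaged over 10, 30 and 60 min, differed by 0.00, with an interval of -0.55 to 0.55.

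The call at Mir22hg rests on few libraries. Leaving out vehicle 30 min replicate 1, vehicle unstimulated 1 h replicate 1 or replicate 2 ended it at 30 min in vehicle, with the log2 fold change at 0.88 to 1.25 and the adjusted p at 0.00783 to 0.528 over the 4 libraries left out in turn. Leaving out U0126 30 min replicate 1, U0126 unstimulated 1 h replicate 1 or replicate 2 ended the call in U0126, with 0.81 to 1.23 and 0.0195 to 0.684. Leaving out vehicle 10 min replicate 1, 30 min replicate 1, 60 min replicate 1 or 2, or unstimulated 1 h replicate 1 or 2 ended the averaged call in vehicle, with 0.73 to 0.86 and 0.0119 to 0.445. Without a filter on low density the call at 30 min in U0126 and the averaged call in vehicle ended, with adjusted p of 0.397 and 0.0756. Quantile normalization ended all 3 calls, with 0.72 at 30 min in U0126 (adjusted p = 0.331), 0.69 at 30 min in vehicle (adjusted p = 0.227) and 0.54 averaged in vehicle (adjusted p = 0.209).

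The Mir22 window, whose hairpin lies 2177 bp inside the host transcript, was followed as the neighbour of a called window. Its density was 1.16 and 0.584 in vehicle at 30 min, against 0.407 and 0.230 in unstimulated vehicle, and 0.690 and 0.555 in U0126 at 30 min, against 0.275 and 0.181 in unstimulated U0126. The log2 fold change was 1.09 ± 0.43 (SE) in vehicle and 1.04 ± 0.43 in U0126, with adjusted p of 0.203 and 0.329, so neither passed the test.

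Pol II also rose at the Mir129-2 window (mm9 chr2:94081310-94081910), where it was highest at 30 and 60 min. The density was 2.14 and 1.76 in vehicle at 30 min, against 0.539 and 0.539 in unstimulated vehicle. The groups did not overlap, and the log2 fold change was 1.60 ± 0.42 (SE, n = 2 each, limma, adjusted p = 0.0437). At 60 min the density was 1.68 and 2.13 in vehicle, and the log2 fold change of 1.56 missed the threshold at an adjusted p of 0.163. In U0126 it was 1.45 and 1.37 at 30 min and 1.68 and 1.89 at 60 min, against 0.193 and 0.673 unstimulated. The U0126 log2 fold changes were 1.55 and 1.81, with adjusted p of 0.0948 and 0.109. They depended on the unstimulated libraries: without U0126 unstimulated 1 h replicate 1 they were 0.91 and 1.17, and without replicate 2 they were 2.19 and 2.45, the second with an adjusted p of 0.0329.

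The Mir129b window, which shares most of this chromatin, had 1.67 and 1.68 in vehicle at 30 min, against 0.478 and 0.404 in unstimulated vehicle. Its log2 fold change was 1.63 ± 0.48 (SE), with an adjusted p of 0.0708. U0126 minus vehicle at 30 min was -0.41 at Mir129-2, with a 95% interval of -1.27 to 0.45. The Mir129-2 call ended without vehicle 30 min replicate 1, without vehicle unstimulated 1 h replicate 1 or without replicate 2, with the log2 fold change at 1.46 to 1.74 and the adjusted p at 0.0463 to 0.573. It also ended with a pseudocount at percentile 10 (adjusted p = 0.0615), with only the upper 25% of windows tested (adjusted p = 0.0881) and with quantile normalization (adjusted p = 0.155).

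**Figure D2:**
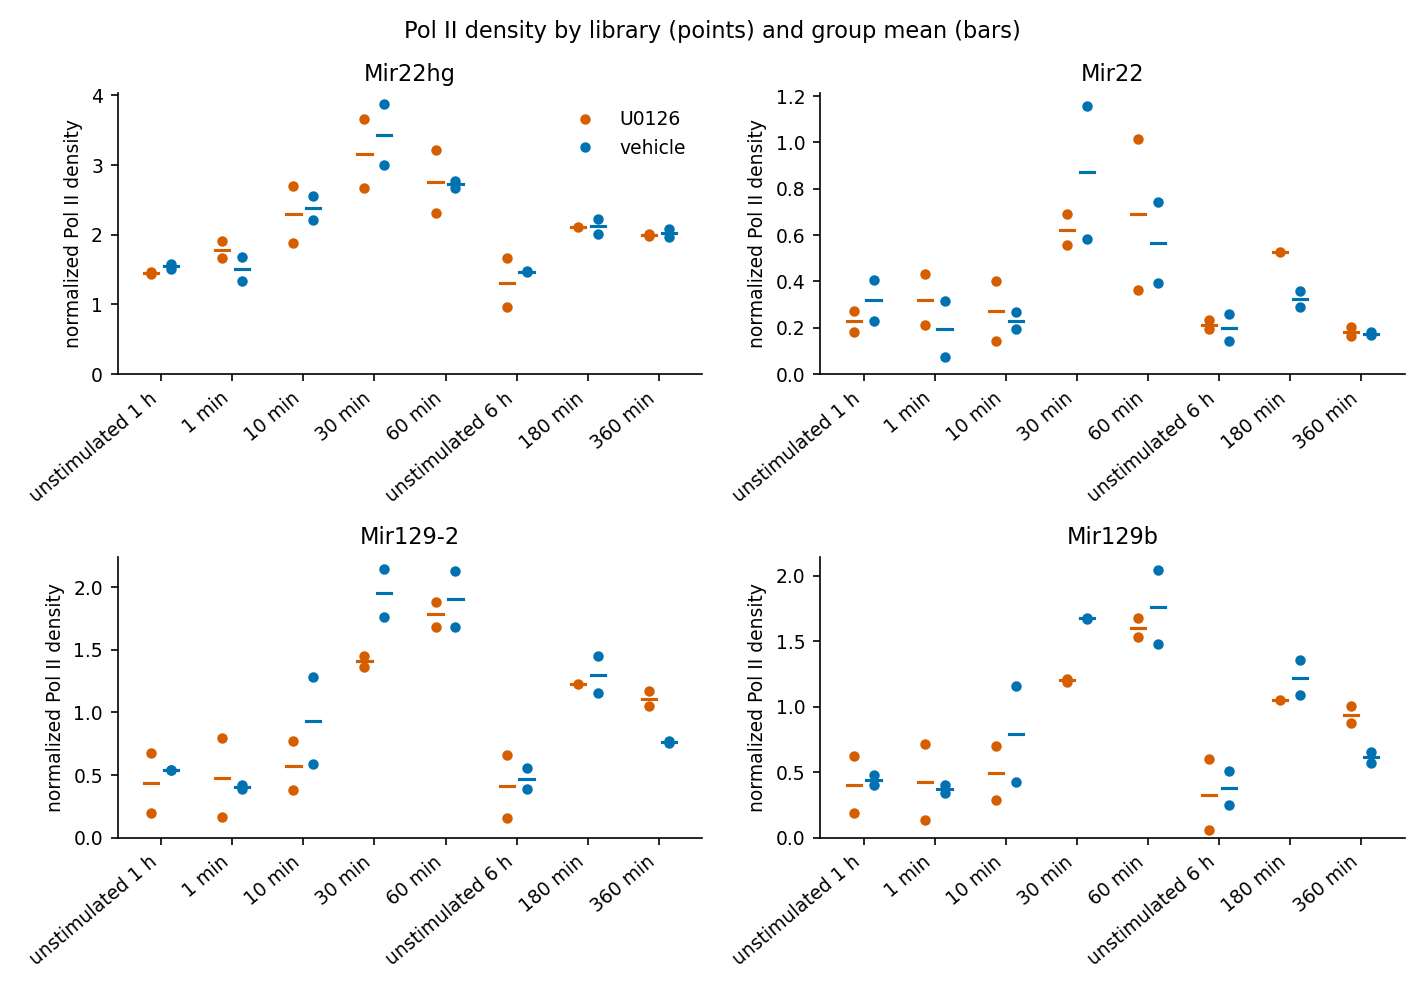
Normalized Pol II density of the Mir22hg, Mir22, Mir129-2 and Mir129b windows in each library (points) and as group means (bars), U0126 left of vehicle, over time. In vehicle at 30 min Mir22hg sits at 3.88 and 3.00, against 1.51 and 1.59 unstimulated, and Mir129-2 at 2.14 and 1.76, against 0.539 and 0.539.

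The other calls were at Mir669g and Mir7075. Mir669g, 1 of the repeated hairpins of the chromosome 2 cluster, fell at 30 min in vehicle, to 0.085 and 0.076, against 1.07 and 0.327 in unstimulated vehicle. The log2 fold change was -1.75 ± 0.46 (SE, limma, adjusted p = 0.0440). The call ended without vehicle 30 min replicate 1, vehicle 30 min replicate 2 or vehicle unstimulated 1 h replicate 1, with the log2 fold change at -2.44 to -1.08. It also ended without a filter on low density (adjusted p = 0.0911) and with quantile normalization (adjusted p = 0.227). The Mir7075 window overlaps the start of Terf2, a telomere protein gene, and rose in U0126 averaged over 10, 30 and 60 min by a log2 fold change of 1.16 ± 0.26 (SE, limma, adjusted p = 0.0323). It had 0.306 and 0.200 in unstimulated U0126, 0.820 and 0.837 at 10 min, 0.731 and 0.538 at 30 min and 0.934 and 0.714 at 60 min, so that every library at these times was above both unstimulated ones. In vehicle the averaged log2 fold change was 0.36, with an adjusted p of 0.548, and the difference between the arms, 0.80, did not pass the test (adjusted p = 1.000). Without U0126 10 min replicate 1 or replicate 2, U0126 30 min replicate 1, U0126 60 min replicate 1, or U0126 unstimulated 1 h replicate 1 or replicate 2, the Mir7075 call ended, with adjusted p up to 0.367, and it ended without a filter on low density (adjusted p = 0.305).

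Counted over all tested microRNA windows, calls were few, as they were in the whole table. At 30 min in vehicle, 2 rose and 1 fell of 222, beside 1.55% of all 13908 windows called, and averaged over 10, 30 and 60 min 1 rose, beside 1.21%. Without vehicle 30 min replicate 1 the count at 30 min was 0, without vehicle unstimulated 1 h replicate 1 it was 0 and without replicate 2 it was 1, while without vehicle 30 min replicate 2 it was 18, and the averaged count was 5. At 30 min in U0126, 1 rose, beside 0.230% of all windows, and averaged in U0126 1 rose, beside 0.316%. Both of these counts were 4 without U0126 30 min replicate 2. At 30 min in vehicle, 18 windows with a rise and 34 with a fall had an unadjusted p under 0.05 in limma. This is 23.4% of microRNA windows beside 14.9% of all windows, and averaged in vehicle it was 9.91% beside 14.5%. In U0126 these shares were 10.4% beside 10.9% at 30 min and 10.8% beside 9.82% averaged. No microRNA window was called at 10 min in vehicle (0.230% of all windows) or at 60 min in vehicle (0.165%), where 9 and 26 had an unadjusted p under 0.05 in limma. These are 4.05% of microRNA windows beside 9.30% of all windows at 10 min, and 11.7% beside 10.6% at 60 min. None was called at 10 min in U0126 (0.0144%) or at 60 min in U0126 (0.108%), where 12 and 22 had an unadjusted p under 0.05, which is 5.41% beside 6.18% of all windows and 9.91% beside 7.61%. At 1, 180 and 360 min in vehicle, no window of the table was called (0%), and 2, 9 and 6 microRNA windows had an unadjusted p under 0.05. These are 0.901%, 4.05% and 2.70% of microRNA windows, beside 3.24%, 4.72% and 3.06% of all windows. The microRNA counts and shares in this paragraph and the next treat the 78 tested windows of the chromosome 2 cluster, described below, as separate. Those windows are repeated copies and are not independent, and at 30 min in vehicle all 78 had a log2 fold change below 0.

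No microRNA window was called in a direct comparison of U0126 with vehicle. The shares called over the whole table were 0% unstimulated at 1 h and 6 h and at 1, 30, 60, 180 and 360 min, and 0.00719% at 10 min and averaged over 10, 30 and 60 min. The number of microRNA windows with an unadjusted p under 0.05 in limma was 9 and 8 unstimulated, and 5, 16, 4, 13, 5 and 3 at 1, 10, 30, 60, 180 and 360 min. As shares, these were 4.05% and 3.60% unstimulated at 1 h and 6 h, beside 2.45% and 2.29% of all windows. Over time they were 2.25%, 7.21%, 1.80%, 5.86%, 2.25% and 1.35%, beside 2.24%, 3.26%, 2.16%, 2.62%, 2.55% and 0.935% of all windows. The difference of the activity effects, averaged over 10, 30 and 60 min, called no window (0%), with 12 microRNA windows at an unadjusted p under 0.05, or 5.41% beside 2.58% of all windows. With each locus given by its window of highest density, the lowest averaged U0126 minus vehicle differences were -0.49 at Mir3074-2, -0.46 at Mir219c, -0.44 at Mir7067, -0.39 at Mir671 and -0.36 at Mir5130, and the highest were 0.45 at Mir3098, 0.44 at Mir6516, 0.43 at Mir467a-1, 0.43 at Mir466c-1 and 0.42 at Mir6359, all with adjusted p of 1.000. The windows of Mir219c, Mir7067, Mir5130, Mir6516, Mir466c-1 and Mir6359 overlap that of another gene, as does a tested copy of Mir467a-1. Mir3098, with a mean density of 0.283, lay just above the tested limit and fell under it without U0126 10, 30 or 60 min replicate 1 or without vehicle 30 min replicate 1. Over the libraries left out in turn, Mir467a-1 ran from 0.095 without vehicle 30 min replicate 1 to 0.77 without vehicle 30 min replicate 2, and Mir5130 from -0.58 to -0.13.

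By size alone, and again by the window of highest density in each locus, the averaged activity effect in vehicle was largest at Mir129-2 (1.24) and then Mir5121 (0.89), whose window overlaps those of 4 small nucleolar RNAs, Mir22hg (0.79), Mir5100 (0.70) and Mir9-3hg (0.66). Mir22hg alone passed the test among these, and the Mir5100 window also overlaps that of another gene. The lowest values were -0.89 at Mir5103, -0.86 at Mir7228, -0.67 at Mir6966, -0.64 at Mir466b-4 and -0.64 at Mir137, with adjusted p of 0.213 to 0.419. Mir7228, with a mean density of 0.293, passed the tested limit only with vehicle unstimulated 1 h replicate 2, where it had 0.808 against 0.245 in replicate 1, and over the other libraries left out in turn it ran from -1.51 to -0.68. Mir5103 ran from -1.17 without vehicle 30 min replicate 2, where it passed the test (adjusted p = 0.0351), to -0.61 without vehicle 30 min replicate 1. The denser of the 2 Mir9-3hg windows had 0.808 and 1.29 in unstimulated vehicle, 2.34 and 1.84 at 1 min, 2.24 and 1.43 at 10 min, 1.67 and 1.80 at 30 min and 1.65 at 60 min in both libraries, with an averaged adjusted p of 0.199. Its averaged log2 fold change in U0126 was -0.06, and the difference of -0.73 between the arms did not pass the test (adjusted p = 1.000). At the other Mir9-3hg window the averaged log2 fold change was 0.62 in U0126 and 0.16 in vehicle, with adjusted p of 0.526 and 0.864.

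The 14 tested windows of listed neuron microRNAs held no call in any comparison, beside 0% to 1.55% of all windows called, depending on the comparison. The list leaves out miR-129, whose Mir129-2 window was called at 30 min in vehicle. Averaged over 10, 30 and 60 min, the median log2 fold change of the 14 was -0.18 in U0126 and 0.06 in vehicle, beside 0.03 and 0.02 over all tested windows. The miR-124 host transcript Mir124a-1hg had averaged log2 fold changes of -0.57 in U0126 and -0.38 in vehicle, with adjusted p of 0.375 and 0.475. The 9 tested windows of the broadly expressed families also held no call, beside the same 0% to 1.55% of all windows.

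The chromosome 2 cluster was the largest group of tested windows. It holds windows of 44 symbols of the miR-297, miR-466, miR-467 and miR-669 families between positions 10387989 and 10440081 of mm9 chromosome 2, in repeated copies, and 78 of them were tested. Reads from near-identical copies can be split between them or lost in counting, so single windows are uncertain and are not independent of each other. The log2 fold change was below 0 at all 78 at 30 and 60 min in vehicle, with medians of -0.71 and -0.58, and above 0 at all 78 at 10 and 60 min in U0126, with medians of 0.25 and 0.51. At 10 min in vehicle it was above 0 at 52 of the 78, with a median of 0.16. Mir669g at 30 min was the only call. The 79 tested windows of precursors alone outside the cluster had medians of -0.03 and -0.24 at 30 and 60 min in vehicle. In U0126 they had 0.04 and 0.17 at 10 and 60 min.

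The cluster's mean density was 0.182 and 0.318 in vehicle at 30 min and 0.393 and 0.216 at 60 min. It was 0.503 and 0.483 in vehicle unstimulated at 1 h, with no overlap. In vehicle unstimulated at 6 h it was 0.350 and 0.457, and the 0.393 at 60 min lay between these. In U0126 it was 0.173 and 0.519 at 30 min and 0.536 and 0.441 at 60 min, against 0.380 and 0.223 unstimulated at 1 h. The 30 min U0126 libraries lay on both sides of these unstimulated ones. The mean over the other 1014 precursor windows was also low in the 30 min replicate 1 libraries, at 0.107 in U0126 and 0.117 in vehicle, which hold the largest shares of windows at 0. It was 0.184 and 0.141 in vehicle at 60 min, against 0.232 and 0.214 in vehicle unstimulated at 1 h. In U0126 it was 0.212 and 0.193 at 60 min, against 0.201 and 0.152 unstimulated at 1 h. Between the unstimulated neurons of 1 h, U0126 minus vehicle had a cluster median of -0.46, with 0 of the 78 above 0. The part of such differences between libraries in the cluster's values was not tested.

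**Figure D3:**
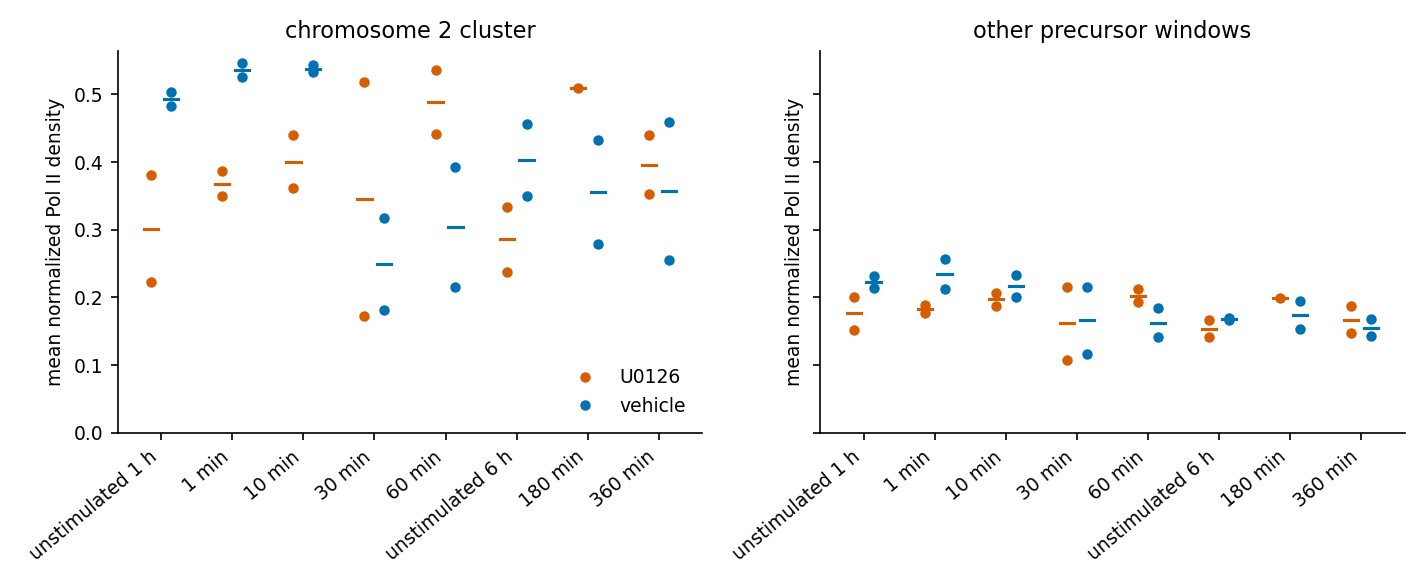
Mean normalized Pol II density in each library over all windows of the chromosome 2 cluster and over the 1014 other precursor windows, U0126 left of vehicle, with group means as bars. The cluster sits at 0.182 and 0.318 in vehicle at 30 min, against 0.503 and 0.483 unstimulated at 1 h, and its U0126 libraries at 30 min are 0.173 and 0.519.

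**Figure D4:**
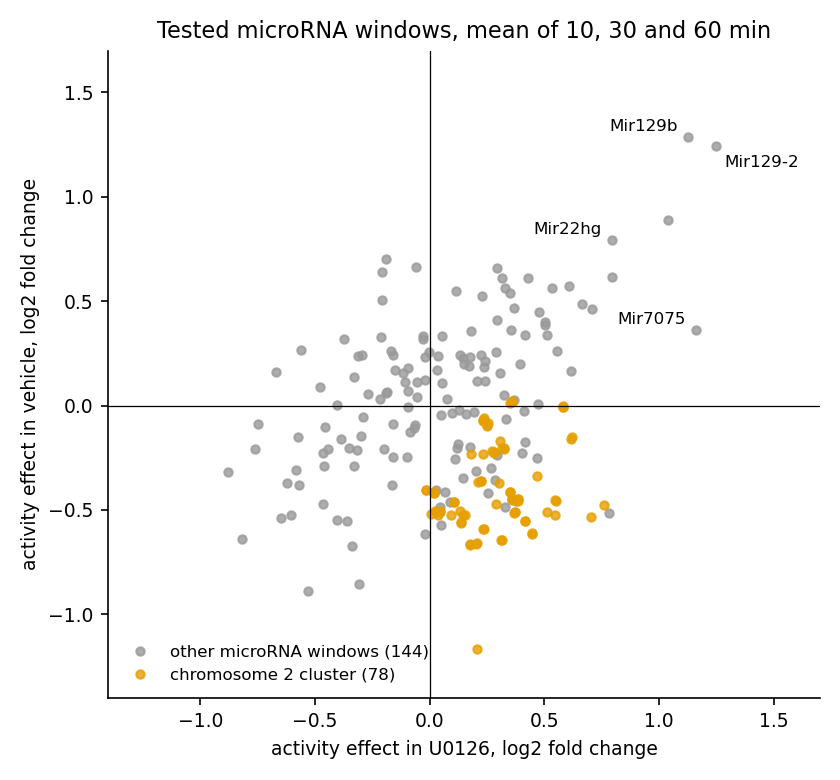
Log2 fold change with activity, averaged over 10, 30 and 60 min, in U0126 (horizontal) and vehicle (vertical) for 222 tested microRNA windows, with the 78 windows of the chromosome 2 cluster in orange. Of all 222, 52 are above 0 in both arms, 38 below 0 in both, 101 above 0 in U0126 only and 31 above 0 in vehicle only. In the cluster, 76 of 78 are above 0 in U0126 and 3 of 78 in vehicle.

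Across the whole set, tested microRNA windows in vehicle had a median log2 fold change of 0.13 after 10 min, -0.24 after 30 min and -0.28 after 60 min, beside 0.04, 0.02 and 0.02 over all tested windows. Other tested windows of low density, 2961 below 0.509, had medians of -0.05, -0.23 and -0.19. In U0126 the medians were 0.17 at 10 min, 0.02 at 30 min and 0.31 at 60 min, beside 0.05, 0.03 and 0.04 over all tested windows and 0.01, -0.14 and -0.02 at the low-density windows. The microRNA medians count the 78 cluster windows, which are not independent, as separate windows. At 30 and 60 min in vehicle, the cluster medians were -0.71 and -0.58, against -0.03 and -0.24 at the 79 precursor windows outside it. At 60 min in U0126 the cluster median was 0.51 and that of the outside precursors 0.17. The 72 windows that overlap another gene, some in the cluster, had 0.17 and 0.02 in vehicle and 0.18 in U0126 at these times.

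H3K27ac was examined at regions near microRNA windows, since none of the 940 deposited regions named a microRNA as its nearest gene. The 24 regions within 20 kb of a microRNA window, near 16 windows, were chosen after the data were seen. The region 500 bp from the Mir129-2 window (mm9 chr2:94082410-94084370) had the highest log2 fold change of the 24 at 60 min in each arm, although none passed the test. Its signal in U0126 was 1.20 and 1.33 unstimulated, 1.05 and 2.34 at 10 min, 1.76 and 5.96 at 30 min and 3.07 and 5.85 at 60 min. In vehicle it was 1.04 and 1.96 unstimulated, 1.15 and 1.93 at 10 min, 2.18 and 2.69 at 30 min and 5.37 and 4.76 at 60 min.

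The values at 60 min exceeded both unstimulated libraries in each arm. The log2 fold change at 60 min was 1.38 ± 0.47 in U0126 and 1.49 ± 0.47 in vehicle (SE, n = 2 each), but limma across the 940 regions gave adjusted p of 0.666 and 0.839. A second region, 2610 bp away, had 3.42 and 4.91 in U0126 and 4.89 and 3.99 in vehicle at 60 min, against 1.42 and 1.63 in unstimulated U0126 and 1.86 and 2.13 in unstimulated vehicle. Its log2 fold changes were 1.15 in U0126 and 0.98 in vehicle. On the other side of the hairpins, the region 514 bp from the Mir129b window had 0.433 and 1.25 in U0126 and 0.804 and 1.05 in vehicle at 60 min, against 0.667 and 0.878 in unstimulated U0126 and 0.680 and 1.55 in unstimulated vehicle, and these groups overlapped. Near Mir670, whose own Pol II window was too low to test (0.186), the region 1234 bp away had 3.83 and 4.77 in U0126 and 4.67 and 4.80 in vehicle at 60 min, against 1.75 and 2.22 in unstimulated U0126 and 2.63 and 2.92 in unstimulated vehicle.

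No region of the 940 was called in any of the 7 comparisons of H3K27ac (0%), and so none of the 24. At 60 min, 5 of the 24 had an unadjusted p under 0.05 in each arm, beside 41 of 940 in U0126 and 37 of 940 in vehicle. These counts treat neighbouring regions as separate. Those near Mir129b, Mir129-2 and Mir670 lie in 1 stretch of mm9 chromosome 2, between positions 94061480 and 94116540, and may not be independent. In the direct comparison averaged over 10, 30 and 60 min, U0126 minus vehicle was 0.07 at the region 500 bp from Mir129-2 and -0.02 at that 2610 bp away.

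**Figure D5:**
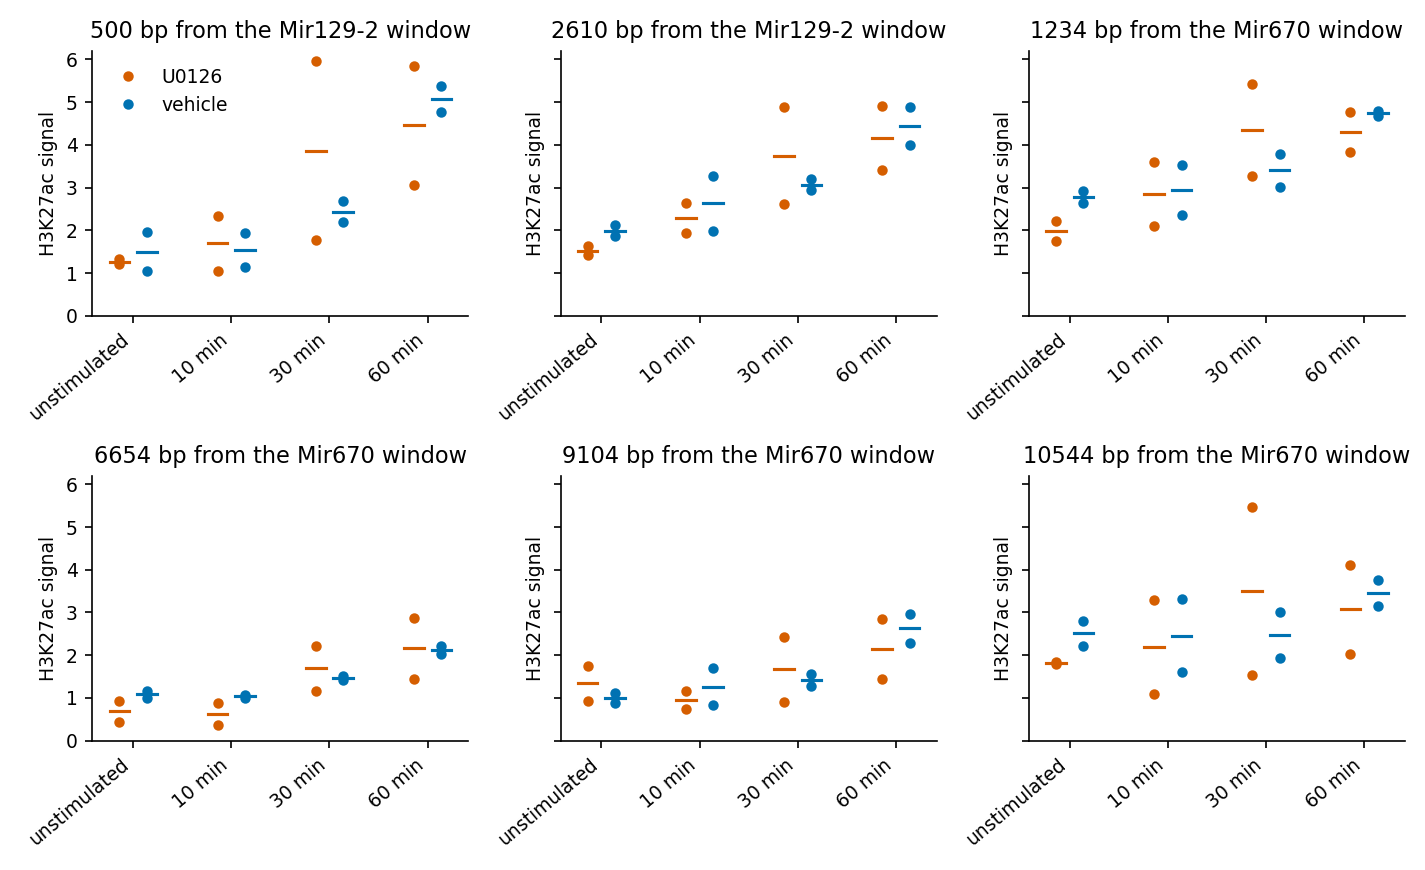
H3K27ac signal in each library (points) and group means (bars), U0126 left of vehicle, by time, at the 6 regions whose nearest microRNA window is that of Mir129-2 or Mir670. The region 514 bp from the Mir129b window, on the other side of the hairpins, is not shown. At 60 min the region 500 bp from Mir129-2 is at 3.07 and 5.85 in U0126 and 5.37 and 4.76 in vehicle, against 1.20 and 1.33 in unstimulated U0126 and 1.04 and 1.96 in unstimulated vehicle.

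The genes of microRNA processing showed no called change. Of 26 with a window, 24 were tested, and 0 were called in each of 21 Pol II comparisons, beside 0% to 1.55% of all windows. For activity in vehicle averaged over 10, 30 and 60 min, 6 had an unadjusted p under 0.05 in limma, beside 14.5% of all windows. The largest averaged changes in vehicle were 0.84 at Ago2, an Argonaute, 0.63 at Ddx5, a helicase of the Drosha complex, 0.58 at Srrt and 0.52 at Fmr1, with adjusted p of 0.0650 to 0.271. Ddx5 passed the test without vehicle 30 min replicate 2, with 0.70 (adjusted p = 0.0199). In U0126 they were 0.56 at Fmr1, 0.50 at Mov10, 0.49 at Ddx5 and -0.47 at Dicer1, with adjusted p of 0.265 to 0.734. Over the libraries left out in turn, Dicer1 ran from -0.77 without U0126 unstimulated 1 h replicate 1 to -0.17 without replicate 2, and Mov10 from 0.28 to 0.72. Averaged U0126 minus vehicle was -0.44 at Ago2 and -0.41 at Ago4 (adjusted p = 1.000), and the Ago4 difference ran from -0.64 to -0.18 on leaving out 1 library. The list's median activity effect averaged 0.04 in U0126 and 0.17 in vehicle, beside 0.03 and 0.02 over all tested windows. Lin28a and Lin28b, inhibitors of let-7 processing in stem cells, had densities of 0.175 and 0.156, under the tested limit.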

How the data were processed

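Pol II and H3K27ac chromatin immunoprecipitation were sequenced in cultured mouse neurons; of 52 samples, 31 Pol II and 16 H3K27ac libraries were used and 5 inputs were not analysed here. Bowtie2, SAMtools, bedtools and the mm9 build are named, per the submitters' processing notes; no versions are given in these notes. The deposited Pol II signal is a normalized density per start window, scaled by the authors to control start sites, per the file headers, and the deposited H3K27ac signal per region has no stated scale. The deposited distance columns, of other unit, are in bp. No counts are given, so depth is unknown.

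Values were log2 transformed after a pseudocount (0.146 for Pol II, 0.628 for H3K27ac, percentile 25 of positive values), centred on each library's median and modelled by group in limma 3.58.1 (R 4.3.3) with a variance trend. The pseudocount makes fold changes of low windows smaller. Benjamini-Hochberg adjustment ran over all 13908 tested windows or 940 regions, and adjusted p under 0.05 was called. The Pol II model left 15 residual degrees of freedom, the H3K27ac model 8. Times up to 60 min were compared with unstimulated neurons of 1 h, and later times with those of 6 h. U0126 at 180 min, with 1 library, borrows the spread of the other groups. The fit was tested on simulated data. Members, lists and tests were chosen with earlier results of these data known. Named windows were every call, the 10 loci of highest density overall and without overlap, the 5 largest rises and falls for averaged vehicle activity and averaged U0126 minus vehicle, and up to 6 neuron microRNAs; Mir22, Mir129b, Mir670, Mir124a-1 and a few others were named after their values were seen. The H3K27ac regions planned by nearest gene had no member, so regions within 20 kb were used. Sequences are from RefSeq. One window that this rule names is not reported here.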

Additional observations from a re-analysis of the deposited data

How the results depend on the processing

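With 2 libraries a group, calls at microRNA windows depended on the setting, and the cause was not tested. Counts of called microRNA windows moved as follows. At 30 min in vehicle (3 called), a pseudocount at percentile 10 gave 2 and at percentile 50 gave 4. No filter gave 3 there, but with Mir129b in place of Mir669g. The upper 25% of windows gave 1, quantile normalization 0 and the replicate block 14. Among all windows tested, these settings called 88, 20 and 753 at 30 min in vehicle, against 215 in the main setting. For vehicle averaged over 10, 30 and 60 min (1 called), a pseudocount at percentile 50 gave 2, no filter gave 1 but at Mir129-2 in place of Mir22hg, the upper 25% gave 0, quantile normalization 0 and the replicate block 7. Among all windows tested, these called 173, 83, 79, 55 and 649, in this order, against 168 in the main setting. At 30 min in U0126 (1 called), a pseudocount at percentile 10, no filter, the upper 25% and quantile normalization each gave 0, and the replicate block 6. Among all windows tested, these called 31, 13, 23, 15 and 358, in this order, against 32 in the main setting. For U0126 averaged (1 called), no filter and the upper 25% gave 0, windows without overlap gave 0 because Mir7075 overlaps Terf2, and values as deposited gave 2 and the replicate block 7. Among all windows tested, no filter called 8, the upper 25% 36, values as deposited 74 and the replicate block 286, against 44 in the main setting. The replicate block gave 2 at 60 min in vehicle, 3 at 60 min in U0126, and 2 of the 24 H3K27ac regions at 60 min in each arm, where no call was made without it. Among all Pol II windows tested, it called 163 at 60 min in vehicle and 66 in U0126, against 23 and 15 without it. The groups share only a replicate number: deviations of same-numbered libraries correlated at -0.06 to 0.51 over 105 pairs of groups, and no label ties libraries of 1 number to a shared culture or day, so whether the numbers pair the libraries was not settled. Under the replicate block Mir129-2 was also called at 60 min in vehicle (adjusted p = 0.00334), at 30 min in U0126 (0.00298) and at 60 min in U0126 (0.000404). Leaving out 1 library in turn gave 0 to 18 calls at 30 min in vehicle, 0 to 5 in vehicle averaged, 0 to 4 at 30 min in U0126, 0 to 4 in U0126 averaged, and 0 to 1 at 10 min in vehicle, 60 min in U0126 and U0126 minus vehicle at 10 min. For single windows and regions, U0126 minus vehicle changed sign at -0.145 to 0.022 at Mir22hg and -0.23 to 0.15 at Mir22, and H3K27ac 500 bp from Mir129-2 at -0.16 to 0.29 averaged, -0.20 to 0.71 at 10 min in U0126 and -0.26 to 0.40 at 10 min in vehicle; quantile normalization gave -0.054 averaged. Under the settings that keep every library, 21 values of named windows and genes gained a call, 14 lost one and 1, given above, changed sign; the others kept direction and side of the threshold.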
